A study of Mus musculus with 3 samples.

Results

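Ribosome-bound RNA of heat shock proteins, their J-domain partners and the chaperonins was examined in captured polysomes of the adult mouse cerebral cortex. The 81 genes were taken by symbol alone out of 32531 in the count tables: the Hspa, Hspb, Hspd, Hspe and Hsph names and the Hsp90a names, the Dnaja, Dnajb and Dnajc names, the Cct subunits and Tcp1. Genes without a count were kept. The pattern also takes Hspb11 and Hspbap1, which are not small heat shock proteins, and leaves out Hsp90b1, the Hsp90 of the endoplasmic reticulum.

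The adult mice carried the Htr3a-Cre driver (NO176) together with Rosa26-LSL-EGFP/Rpl10a, a tagged ribosomal protein that Cre switches on, so that cells in which the driver has been active carry ribosomes tagged with EGFP. Polysomes were captured from whole cortex with anti-EGFP antibodies, an assay called translating ribosome affinity purification, and 3 immunopurified libraries, replicates 1, 2 and 3, form the only group. The labels do not say whether separate animals were used, and each p-value therefore covers no more than the differences among 3 libraries, possibly technical ones. Unpurified cortex was not analysed here, and genes were therefore compared with one another inside the same libraries.

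Chaperones of the Hsp70 family bind unfolded stretches of proteins in a cycle driven by ATP. J-domain proteins deliver clients and start ATP hydrolysis, and nucleotide exchange factors such as the Hsp110 proteins end the cycle. Hsp90 takes over clients at a later stage, many of them kinases and receptors, and the chaperonins are closed chambers in which proteins such as actin and tubulin fold. When unfolded proteins accumulate, the transcription factor Hsf1 binds arrays of short inverted repeats, the heat shock elements, upstream of the inducible members.

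Windows of 300 bases around gene starts, 250 before and 50 after, were read from RefSeq (GRCm38.p6) for 66 of the 81 genes, and those shown belong to stress-inducible genes whose levels are set against those of relatives. Elements of 2 units were searched as GAANNTTC and TTCNNGAA, each of which reads the same on both strands, and 3-unit elements as GAANNTTCNNGAA and TTCNNGAANNTTC, which contain the shorter ones. Capitals mark the 2-unit matches, and in the Hspa5 window the endoplasmic reticulum stress element, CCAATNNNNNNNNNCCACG, searched on both strands.
Hspa1a, chr17:34972107-34972406, minus strand: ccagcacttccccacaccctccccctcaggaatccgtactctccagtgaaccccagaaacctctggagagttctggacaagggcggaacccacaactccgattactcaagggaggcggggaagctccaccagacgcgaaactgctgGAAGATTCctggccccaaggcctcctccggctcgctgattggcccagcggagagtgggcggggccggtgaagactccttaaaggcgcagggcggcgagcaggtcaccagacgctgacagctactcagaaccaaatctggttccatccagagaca
Hspa1b, chr17:34959189-34959488, minus strand: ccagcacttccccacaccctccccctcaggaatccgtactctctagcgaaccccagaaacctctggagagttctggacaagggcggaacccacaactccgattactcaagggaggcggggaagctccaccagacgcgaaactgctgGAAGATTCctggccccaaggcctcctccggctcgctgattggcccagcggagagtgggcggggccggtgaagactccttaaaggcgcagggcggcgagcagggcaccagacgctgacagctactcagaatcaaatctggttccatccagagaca
Hspe1, chr1:55087898-55088197, plus strand: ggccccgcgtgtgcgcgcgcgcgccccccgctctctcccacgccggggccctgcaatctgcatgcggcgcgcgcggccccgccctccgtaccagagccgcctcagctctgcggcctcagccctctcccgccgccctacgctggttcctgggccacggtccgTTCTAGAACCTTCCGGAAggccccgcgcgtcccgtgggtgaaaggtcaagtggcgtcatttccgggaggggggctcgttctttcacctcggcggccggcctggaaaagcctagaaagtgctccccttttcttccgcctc
Hsph1, chr5:149636287-149636586, minus strand: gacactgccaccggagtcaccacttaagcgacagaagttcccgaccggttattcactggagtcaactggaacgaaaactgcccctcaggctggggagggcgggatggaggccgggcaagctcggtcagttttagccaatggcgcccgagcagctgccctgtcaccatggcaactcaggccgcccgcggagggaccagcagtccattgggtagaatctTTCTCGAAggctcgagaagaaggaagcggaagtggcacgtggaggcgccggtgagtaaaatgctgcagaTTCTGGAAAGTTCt
Hspa5, chr2:34771840-34772139, plus strand: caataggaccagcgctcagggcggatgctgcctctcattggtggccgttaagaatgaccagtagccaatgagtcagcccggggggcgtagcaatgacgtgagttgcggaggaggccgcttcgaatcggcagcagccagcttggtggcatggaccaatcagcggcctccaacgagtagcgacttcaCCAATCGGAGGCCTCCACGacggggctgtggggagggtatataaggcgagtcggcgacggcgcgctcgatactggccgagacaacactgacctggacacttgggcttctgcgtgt

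The Hspa1a and Hspa1b windows were identical at 296 of 300 bases and held 1 match each at the same place. The Hspe1 window shared 285 bases with an Hspd1 window on the opposite strand, so that both genes had the same run of 3 overlapping matches. At least 1 match of 2 units stood in 21 of the 85 windows of these genes, belonging to 19 of the 66, and in 15.1% of all 32851 windows of the genome. A 3-unit match stood in 6 of the 85 windows, belonging to 4 genes, Dnajb6, Hspd1, Hspe1 and Hsph1, and in 0.603% of all windows. Not every stress-responsive gene had a match: none of 2 or 3 units was found for Dnajb1, and Hsp90aa1 had no window to search. The endoplasmic reticulum element was found in 2 of the 85 windows, belonging to Hspa5 and Dnajc3, and in 0.119% of all windows.

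As a group the 81 genes were abundant in the captured RNA. Counts were converted to TPM, a transcript level corrected for exon length, with an equal sum in every library, and values after ± are SDs over 3 libraries. Of the 81 genes, 69 (85.2%) reached at least 1 TPM in 3 of 3 libraries, and 50.9% of all 23892 genes with an exon length did so. At least 100 TPM was reached by 23 (28.4%), and by 7.40% of all genes. The median over the 81 genes was 38.2, 45.3 and 43.8 TPM in replicates 1, 2 and 3, against 1.89, 2.11 and 2.21 TPM over all genes. Over the 20419 protein-coding genes with an exon length the medians were higher, at 4.12, 4.55 and 4.80 TPM. Of those genes, 57.6% reached at least 1 TPM and 8.59% at least 100 TPM in 3 of 3 libraries. The levels of the 81 genes together made up 1.27%, 1.30% and 1.21% of the total in replicates 1, 2 and 3. That sum was uneven: Hsp90ab1, Hsp90aa1 and Hspa8 held 46.0% of it and the top 10 genes 69.0%.

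**Figure D1:**
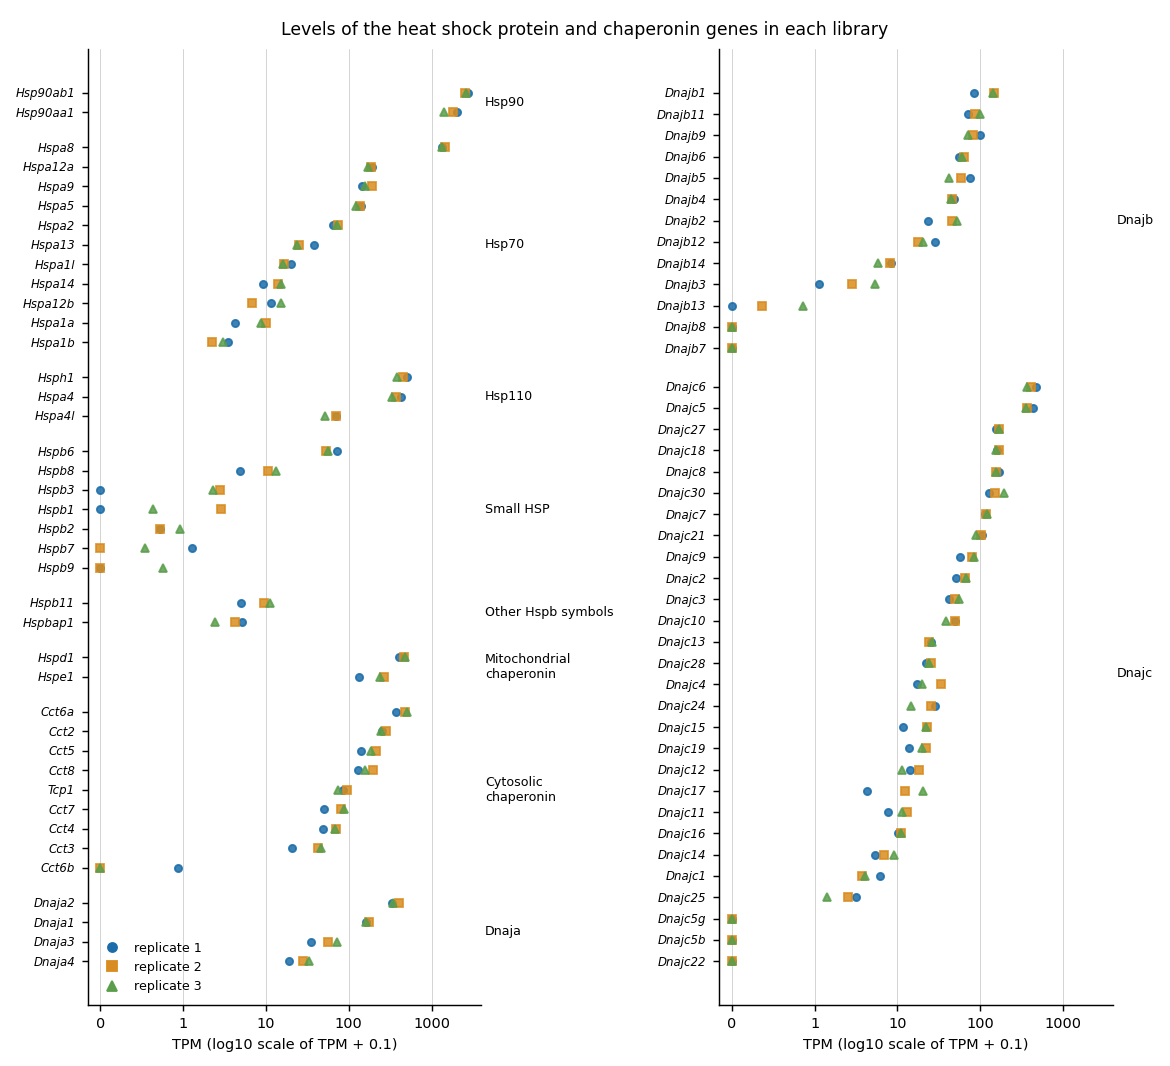
Level of each of the 81 genes in each library, in TPM on a log10 scale of TPM + 0.1, grouped by family and ordered by mean. Both Hsp90 genes and Hspa8 lie above 1000 TPM in every library, most small heat shock proteins lie below 10 TPM, and the points of a gene mostly lie close together.

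Both cytosolic Hsp90 genes stood at the top. Hsp90aa1, the stress-responsive form, stood at 2028, 1818 and 1404 TPM in replicates 1, 2 and 3 (1750.4 ± 318), and Hsp90ab1, the constitutive form, at 2784, 2559 and 2590 TPM (2644 ± 122), rank 26 of all genes with a length. Hsp90aa1 was below Hsp90ab1 in 3 of 3 libraries, and the genes were farthest apart in replicate 3. The log2 difference was -0.61 (SD 0.24; limma, adjusted p = 0.0112), and 99.7% of all tested genes were called lower than Hsp90ab1 and 0.128% higher. This call depends on length and copies: 47.5% of the 50-base stretches of Hsp90aa1 transcripts recur in genes elsewhere, against 3.44% for Hsp90ab1, and alignments that were not unique are listed apart from the gene counts. With such stretches left out of the length the difference was 0.27, the other direction (limma, adjusted p = 0.130), and without a length correction it was -0.22 (limma, adjusted p = 0.195). Hsp90b1, the endoplasmic reticulum form outside the symbol pattern, stood at 533 ± 36.5 TPM, 4.96-fold below Hsp90ab1 (limma, adjusted p = 2.03e-05).

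Among the Hsp70 genes, the constitutive Hspa8 far exceeded its heat-inducible relatives. Hspa8 (chromosome 9, 40800984 to 40810087, GRCm38), which also drives the uncoating of clathrin vesicles, stood at 1350, 1447 and 1354 TPM (1384 ± 55.0). Hspa1a stood at 4.16, 9.82 and 8.52 TPM from 34, 82 and 73 counts, and Hspa1b at 3.37, 2.16 and 2.96 TPM from 26, 17 and 24 counts. Both inducible genes stayed below 10 TPM in every library, with means of 7.498 ± 2.97 TPM for Hspa1a and 2.83 ± 0.616 TPM for Hspa1b. On the log2 scale Hspa1a minus Hspa8 was -7.60 (SD 0.62; limma, adjusted p = 1.72e-06), and Hspa1b minus Hspa8 was -8.91 (SD 0.37; limma, adjusted p = 6.59e-07). The inducible pair, at chromosome 17 from 34969190 to 34972156 and from 34956436 to 34959238, cannot be separated well, since 60.3% and 62.3% of their 50-base stretches recur elsewhere, mostly in each other. For Hspa8 that share was 37.0%. With copied stretches left out of the lengths, the log2 differences from Hspa8 were -6.94 for Hspa1a and -8.20 for Hspa1b.

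The other Hsp70 genes of several cell compartments stood at intermediate levels. Hspa12a, a distant Hsp70 relative abundant in brain, stood at 183 ± 8.86 TPM, Hspa9, the mitochondrial Hsp70, at 164 ± 23.1 TPM and Hspa5, the endoplasmic reticulum Hsp70 known as BiP, at 132 ± 8.48 TPM. Hspa2, best known from the testis, stood at 70.0 ± 4.86 TPM. These were the upper members, each 7.58-fold to 19.8-fold below Hspa8. Their log2 differences, -2.92 for Hspa12a, -3.09 for Hspa9, -3.39 for Hspa5 and -4.30 for Hspa2, were -3.59, -3.71, -4.05 and -4.97 without copied stretches, and those of Hspa12a and Hspa2 were -1.83 and -5.005 without a length correction. Lower levels were found for Hspa13 (28.9 ± 8.11 TPM), Hspa1l (17.4 ± 2.21 TPM), Hspa14 (12.8 ± 3.17 TPM) and Hspa12b (11.1 ± 4.25 TPM). Another annotated gene on the opposite strand covers 71.9% of the Hspa1l exons, and the strand setting of the counts is not stated, so the Hspa1l value may hold reads of that gene. All 13 Hsp70 and Hsp110 genes set against Hspa8 were called lower, as were 99.3% of all tested genes, with 0.329% called higher.

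The Hsp110 genes, nucleotide exchange factors for Hsp70, were abundant, and replicate 3 was the low library for each. Hsph1, itself heat-inducible, stood at 508, 457 and 383 TPM (449 ± 62.8), Hspa4 at 430, 369 and 335 TPM (378 ± 47.7) and Hspa4l at 70.6, 70.5 and 52.0 TPM (64.4 ± 10.7). The first pair lay far above Hspa4l in every library. Hsph1 was 3.10-fold below Hspa8 (limma, adjusted p = 0.000114) and Hspa4 3.68-fold (limma, adjusted p = 5.53e-05), the smallest distances among the 13 genes set against Hspa8. Their log2 differences of -1.63 and -1.88 were -2.30 and -2.54 without copied stretches, and that of Hsph1 was -0.87 without a length correction. The calls held under both. The printed window of Hsph1, 1 of 2 for that gene, held 3 heat shock element matches, some of them after the gene start. Each window of the Hspa1 pair held 1 match. The levels of these genes differed widely, and the part of the matches in them was not tested.

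J-domain proteins of the A and B types, the general partners of Hsp70, were led by Dnaja2 at 336, 403 and 339 TPM (359 ± 38.3). Dnaja1 followed at 163, 177 and 159 TPM (167 ± 9.27) and Dnajb1, the main heat-inducible J protein, at 83.7, 146 and 143 TPM (124 ± 35.3). Replicate 1 was the low library for Dnajb1, with a 1.71-fold range after scaling, against 1.21-fold for Dnaja2 and 1.12-fold for Dnaja1. Dnaja2 was 2.15-fold above Dnaja1 (limma, adjusted p = 0.000471; 6.37% of all tested genes were called higher than Dnaja1), but the log2 difference of 1.11 was 0.51 with the longest transcript as length and turned to -0.43 without a length correction, the Dnaja1 exons being annotated over 8629 nt and those of Dnaja2 over 2975 nt. Dnajb1 minus Dnaja1 was -0.46 (SD 0.44) and missed the threshold (limma, adjusted p = 0.0750). It passed at -0.99 with the longest transcript as length, at -0.62 without replicate 3, at -1.89 without a length correction and at -0.64 without copied stretches. Dnajb6, a suppressor of protein aggregation, at 59.4 ± 4.01 TPM, the mitochondrial Dnaja3 at 54.5 ± 18.8 TPM and Dnaja4 at 26.6 ± 7.11 TPM were called lower than Dnaja1, as were 86.7% of all tested genes. Without a length correction the log2 differences of Dnaja3 and Dnaja4, -1.67 and -2.68, were -2.81 and -3.94. Exons of a gene on the other strand cover 44.1% of those of Dnaja4. Dnajb5 stood at 58.7 ± 17.1 TPM, Dnajb4 at 45.6 ± 2.04 TPM and Dnajb2, which in neurons guides ubiquitylated clients to the proteasome, at 40.3 ± 15.3 TPM.

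By mean level, Dnajc6 and Dnajc5 of the synaptic vesicle cycle led the J proteins, although in replicate 2 Dnaja2 stood above Dnajc5, a pair that was not tested. Dnajc6, the neuronal auxilin that brings Hspa8 to clathrin coats, stood at 467, 412 and 367 TPM (415 ± 50.1). Dnajc5, the cysteine string protein of synaptic vesicles, stood at 434, 364 and 360 TPM (386 ± 41.8). Both were highest in replicate 1, and Dnajc6 was slightly above Dnajc5 in 3 of 3 libraries. That log2 difference was 0.10 (SD 0.07) and missed the threshold (limma, adjusted p = 0.453), and it turned to -0.13 without a length correction. The Dnajc5 paralogs Dnajc5b and Dnajc5g had 0 counts in every library, which allows up to 3 counts or 0.209, 0.215 and 0.207 CPM, counts scaled to the library total without length, in replicates 1, 2 and 3. With that floor per library, they were at least 430.2-fold and at least 559-fold lower than Dnajc5. Dnajc7, a cochaperone that binds both Hsp70 and Hsp90, at 116 ± 3.66 TPM was 3.30-fold below Dnajc5 (limma, adjusted p = 0.000214), and 95.2% of all tested genes were called lower than Dnajc5 and 1.85% higher. The log2 difference of Dnajc7 was -1.72, and it was -0.74 with the longest transcript as length, which puts Dnajc7 at 184 TPM.

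Other Dnajc genes tie Hsp70 to single tasks. Dnajc27, which carries a Rab-like GTPase domain, stood at 164 ± 6.42 TPM, Dnajc18 at 161 ± 7.68 TPM, the splicing-associated Dnajc8 at 158 ± 8.21 TPM and the mitochondrial Dnajc30 at 157 ± 32.8 TPM. Exons of a neighbour on the other strand cover 26.2% of the Dnajc30 exons. Dnajc21, which acts in ribosome maturation, stood at 98.1 ± 8.31 TPM, Dnajc9, a histone cochaperone, at 73.2 ± 14.4 TPM, and the ribosome-bound Dnajc2 at 60.7 ± 8.65 TPM. In all, 25 of the 28 Dnajc genes passed 1 TPM in each library. The 12 J-protein genes not given singly by level, 10 of them Dnajc genes, ranged from 7.32 ± 1.41 TPM for Dnajb14 to 25.0 ± 0.819 TPM for Dnajc13. The lowest J-protein genes with a count were Dnajb13, Dnajc25 (2.25 ± 0.883 TPM), Dnajb3 (3.003 ± 2.13 TPM), Dnajc1 (4.53 ± 1.27 TPM) and Dnajc14 (6.98 ± 1.90 TPM). Dnajb13, a part of the axoneme of cilia and sperm tails, had 0, 1 and 5 counts in replicates 1, 2 and 3. The summed level of 5 ependymal markers was 10.3, 11.3 and 19.3 TPM, also highest in replicate 3, while Foxj1 among them had 47, 34 and 16 counts; their part in the Dnajb13 counts was not tested. Besides the Dnajc5 paralogs, Dnajb7, Dnajb8 and Dnajc22 had 0 counts in 3 of 3 libraries.

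Chaperones of the endoplasmic reticulum were present, described here by 7 genes that do not cover all of that compartment. Hsp90b1, outside the symbol pattern, stood above all 7 at 533 ± 36.5 TPM. Within the 7, Hspa5 was followed by Dnajb11 at 85.6 ± 13.6 TPM and Dnajb9 at 83.6 ± 14.5 TPM. Then came the eIF2 kinase inhibitor Dnajc3 at 48.9 ± 6.69 TPM and the disulfide reductase Dnajc10 at 45.6 ± 6.26 TPM, with Hspa13 and Dnajc1 below. This grouping of 7 genes was drawn up after the values were seen. Its summed level was 445, 431 and 413 TPM in replicates 1, 2 and 3, but 7 of 7 genes varied between libraries by the chi-square test, where 74.3% of all tested genes did, and in different directions. Dnajb11 (71.6, 86.5 and 98.7 TPM) and Dnajc3 (41.8, 49.7 and 55.1 TPM) were lowest in replicate 1, and Dnajb9 (99.1, 81.6 and 70.2 TPM) and Hspa13 (38.2, 24.8 and 23.7 TPM) were highest there.

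The mitochondrial chaperonin was lower in replicate 1. Hspe1, the lid of the mitochondrial chaperonin, stood at 131, 266 and 237 TPM (211 ± 70.9), and Hspd1, its barrel, at 405, 463 and 476 TPM (448 ± 38.0). Replicate 1 was lowest for both, by a wider margin for Hspe1. Hspe1 minus Hspd1 was -1.14 on the log2 scale (SD 0.43; limma, adjusted p = 0.00150), and 96.3% of all tested genes were called lower than Hspd1 and 1.49% higher. The 2 genes are divergent neighbours on chromosome 1 and share most of the window printed above. With the longest transcript as length the difference of Hspe1 was -0.66, and without a length correction it was -1.98. In genes elsewhere, 18.4% of the 50-base stretches of Hspe1 and 39.7% of those of Hspd1 recur. With Hspa9, Dnaja3, Dnajc11, Dnajc15, Dnajc19 and Dnajc30, a group likewise drawn up after the values were seen, 8 of 8 genes were lowest in replicate 1, as were 40.2% of all tested genes, and since the group was formed with the values known its count supports nothing. Mitochondrial chaperones outside the symbol pattern did not all share this: Trap1 stood at 47.8, 49.4 and 46.7 TPM, lowest in replicate 3. Clpb, at 12.2 ± 0.592 TPM, was lowest in replicate 1, at 11.77 TPM. Neither Trap1 nor Clpb passed the chi-square test for variation between libraries (adjusted p = 0.657 and 0.684). Clpp stood at 18.99, 52.59 and 73.03 TPM, Grpel1 at 18.82, 29.41 and 26.39 TPM and Lonp1 at 18.75, 26.65 and 20.34 TPM. These mitochondrial genes, also outside the pattern, were lowest in replicate 1. Each passed the chi-square test (adjusted p = 1.70e-21, 5.66e-05 and 0.000179). Grpel2 was lowest there too, at 9.29 TPM, but did not pass the chi-square test (adjusted p = 0.0914).

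The cytosolic chaperonin, called TRiC or CCT, is a double ring in which each ring holds 1 copy of each of its different subunits, yet its subunit transcripts were far from equal. Cct6a led at 374, 481 and 504 TPM (453 ± 69.4), followed by Cct2 at 253, 279 and 245 TPM (259 ± 17.6), Cct5 at 142, 212 and 187 TPM (180.4 ± 35.6) and Cct8 at 129, 196 and 156 TPM (160.4 ± 33.8). Tcp1, the alpha subunit, stood at 86.0, 96.5 and 73.4 TPM (85.3 ± 11.6), Cct7 at 50.9, 81.4 and 87.9 TPM (73.4 ± 19.8), Cct4 at 48.2, 69.7 and 68.9 TPM (62.3 ± 12.2) and Cct3 at 20.7, 42.9 and 46.2 TPM (36.6 ± 13.8). Cct6a was the highest and Cct3 the lowest subunit in every library, 18.04-fold, 11.2-fold and 10.9-fold apart in replicates 1, 2 and 3. On the means the distance was 12.4-fold, and 9.56-fold with the longest transcript as length and 7.004-fold without a length correction, with the same subunits at both ends. Cct6b, a paralog of Cct6a known from the testis, had 4, 0 and 0 counts.

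Against Tcp1, Cct6a was 5.29-fold (limma, adjusted p = 6.58e-08), Cct2 3.05-fold (limma, adjusted p = 4.92e-06), Cct5 2.10-fold (limma, adjusted p = 0.000461) and Cct8 1.86-fold higher (limma, adjusted p = 0.00181). Of all tested genes, 13.7% were called higher than Tcp1 and 73.6% lower. Cct3 was 2.45-fold lower (limma, adjusted p = 0.000274), a call lost without moderation of the spread (limma, adjusted p = 0.0992). The Cct4 minus Tcp1 difference of -0.47 (SD 0.37; limma, adjusted p = 0.0764) and the Cct7 minus Tcp1 difference of -0.25 (SD 0.51; limma, adjusted p = 0.354) missed the threshold, and Cct4 passed it at -0.65 without replicate 3, at -0.72 without a length correction and at -0.55 without copied stretches. Without a length correction the difference of Cct2, 1.61 with lengths, was 0.63 and still passed, and those of Cct5 and Cct8 were 0.21 and 0.19 and no longer passed. Exons of other genes overlap 16.9% of those of Tcp1 and 15.3% of those of Cct6a.

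**Figure D2:**
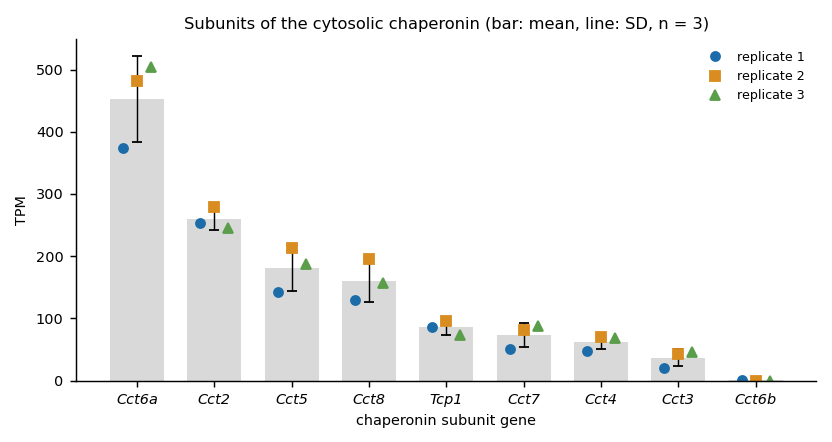
Level of each cytosolic chaperonin subunit gene in TPM (bar: mean, line: SD, n = 3, points: libraries). Cct6a is highest and Cct3 lowest of the subunits other than Cct6b, and replicate 1 is the lowest point for 6 of 8 of them.

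**Figure D3:**
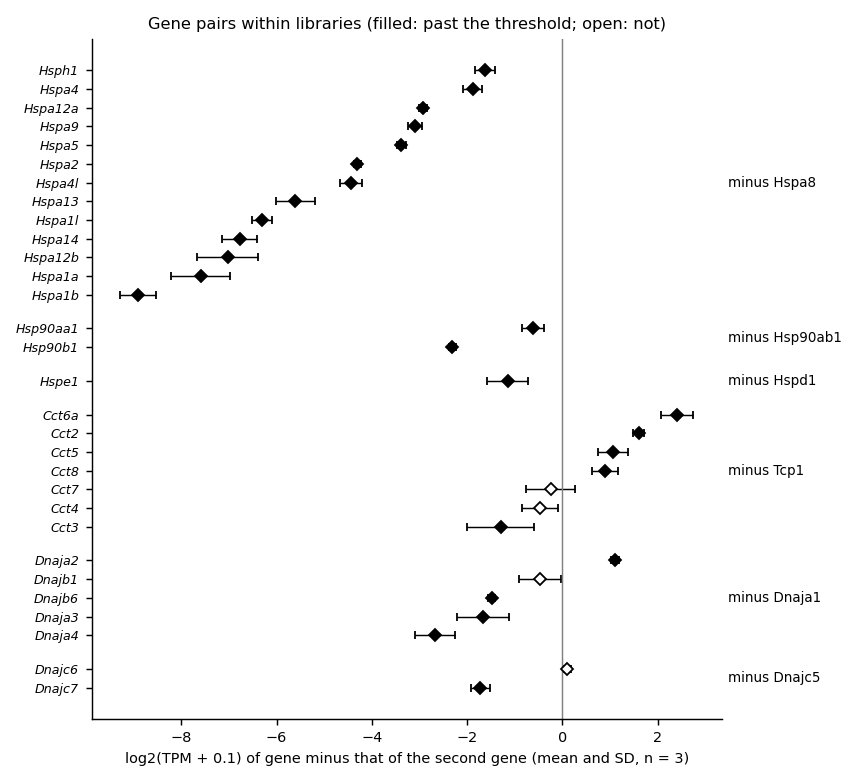
Differences in log2(TPM + 0.1) between members and a second gene of their family in the same library (diamond: mean, line: SD, n = 3). All genes set against Hspa8 lie to its left, the pair Hspa1a and Hspa1b farthest, while chaperonin subunits lie on both sides of Tcp1.

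Small heat shock proteins, which hold unfolded proteins without ATP, were the sparsest family. Hspb6 stood at 73.1, 53.0 and 55.6 TPM (60.5 ± 10.9) and Hspb8, the partner of Bag3 in selective autophagy, at 4.84, 10.4 and 13.3 TPM (9.51 ± 4.31). The other small heat shock proteins were near the detection limit. Hspb1 had 0, 8 and 1 counts, with 50.1% of its stretches recurring elsewhere, Hspb3 had 0, 6 and 5, Hspb7 9, 0 and 2, Hspb2, whose exons Cryab overlaps by 30.2%, 1, 1 and 2, and Hspb9 0, 0 and 1 counts in replicates 1, 2 and 3. Hspb11, a subunit of the intraflagellar transport complex, stood at 8.46 ± 3.18 TPM and Hspbap1, an Hspb1-binding protein, at 3.83 ± 1.35 TPM. The alpha-crystallin gene Cryab, a small heat shock protein by function, exceeded all of them at 229 ± 4.11 TPM. The summed level of 5 oligodendrocyte markers was 231, 155 and 140 TPM in replicates 1, 2 and 3, highest in replicate 1 as Hspb6 was, and its part in the Hspb6 level was not tested.

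Most of the genes varied between the 3 libraries by more than counting error, as did most genes of the tables. Of the 68 genes that averaged 1 CPM or more, 60 (88.2%) had counts that differed from their scaled library sizes (chi-square test, Benjamini-Hochberg adjusted over all 12949 genes tested), against 74.3% of all genes. Without replicate 1 the number was 32 of 68, and 42.7% of all genes. The 8 genes that did not pass were Dnajc7, Dnajc13, Dnajc16, Dnajc27, Dnajc28, Hspa2, Hspa1b and Hspa1l. Smaller differences pass this test at higher counts, and these genes were more abundant than most. Among genes averaging at least 5 CPM, 55 of 62 (88.7%) passed, against 79.2% of all genes at that level. In size the variation was like that of the table: the highest library exceeded the lowest 1.42-fold at the median, against 1.41-fold over all tested genes, and at least 2-fold for 11 of 68 genes, against 19.5% of all tested genes.

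The 11 genes with at least a 2-fold range were mostly of low or middle level. Dnajc17, which acts in splicing, ranged widest at 15, 45 and 76 counts, a 4.69-fold range after scaling, followed by Hspb8 (2.67-fold), Dnajc25 (2.41-fold), Hspa1a (2.32-fold), Hspa12b (2.25-fold), Dnajb2 (2.21-fold), Hspbap1 (2.19-fold), Hspb11 (2.18-fold), Cct3 (2.16-fold), Dnaja3 (2.01-fold) and Dnajc24 (2.01-fold). Replicate 1 was the lowest library for 7 of these, and Dnajc25, Hspbap1 and Dnajc24 were lowest in replicate 3 and Hspa12b in replicate 2. Hspa12b, known from endothelial cells, stood at 11.4, 6.65 and 15.1 TPM. The summed level of 5 endothelial markers was 3.49, 3.62 and 3.21 TPM in replicates 1, 2 and 3, without a common direction among them. Flt1 had 66, 14 and 46 counts, lowest in replicate 2 as Hspa12b was, and Pecam1 had 3, 16 and 31. Tek had 10, 12 and 2 counts, Cdh5 9, 8 and 2 and Cldn5 0, 3 and 0. Their part in the Hspa12b level was not tested. Over all 68 genes, replicate 1 was lowest for 34, replicate 3 for 28 (41.2%) and replicate 2 for 6 (8.82%). Of all tested genes, 40.2% were lowest in replicate 1, 34.6% in replicate 3 and 25.2% in replicate 2.

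The position of replicate 1 went with transcript length. The log2 ratio of replicate 1 over the mean of replicates 2 and 3 had a median of -0.36 for the 27 genes in the shortest tercile of transcripts and 0.14 for the 19 in the longest tercile. Over all tested genes these medians were -0.27 and 0.14. Across the 68 genes the ratio and the log2 length had a Pearson r of 0.42 and a Spearman rho of 0.36, and 0.32 and 0.33 across 12453 tested genes, as a description over genes that share the same 3 libraries. In the highest tercile of GC content the medians were -0.27 for the 14 heat shock and chaperonin genes and -0.15 for all. The log2 ratio was -1.07 for Cct3, -0.90 for Hspe1 and -0.85 for Dnaja3, and it was 0.69 for Hspa13, 0.63 for Dnajb5 and 0.37 for Hsp90aa1. The part of length and GC content in these values was not tested.

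**Figure D4:**
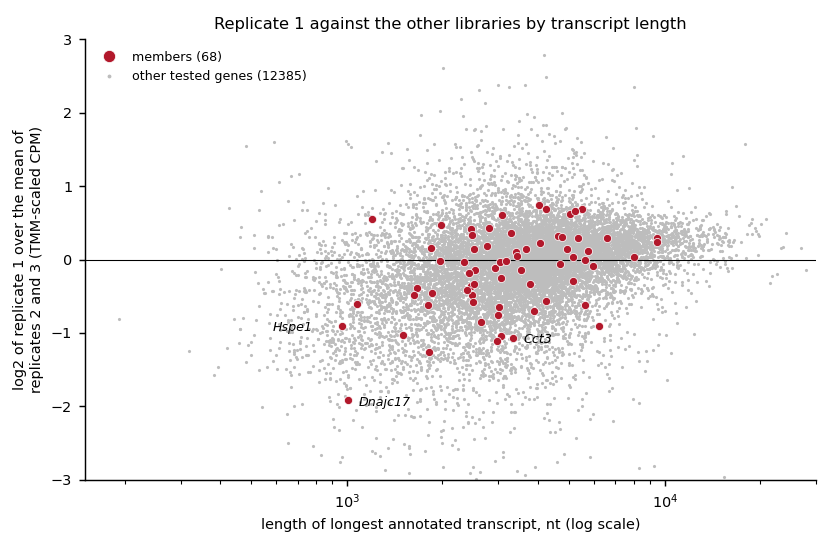
Log2 ratio of replicate 1 over the mean of replicates 2 and 3 (TMM-scaled CPM) against the length of the longest annotated transcript (log scale), for 68 heat shock and chaperonin genes and the other 12385 tested genes, 12353 of which lie within the axes. Both sets lean downwards at short and upwards at long transcripts, with Dnajc17 and Cct3 among the lowest of the named genes.

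Regulators and cochaperones outside the symbol pattern were mostly present. Of 50 such genes, 46 reached at least 1 TPM in 3 of 3 libraries, with a median of 28.4, 39.6 and 38.0 TPM in replicates 1, 2 and 3, and 35 of 45 tested (77.8%) varied between libraries, close to the 74.3% of all tested genes. The highest was Sgtb, a brain-rich cochaperone of Hsp70, at 854 ± 138 TPM, followed by Stip1, which links Hsp70 to Hsp90, at 653 ± 123 TPM and the nucleotide exchange factor Bag1 at 598 ± 166 TPM. Of the heat shock factors, Hsf1 stood at 32.0 ± 6.80 TPM and Hsf2 at 21.9 ± 6.19 TPM, with Hsf4 at 7.69 ± 1.42 TPM, Hsf5 at 0.257 ± 0.0892 TPM and Hsf3 at 0 counts. Subunits of prefoldin, which feeds the cytosolic chaperonin, ranged from Pfdn4 at 37.5 ± 11.5 TPM to Pfdn2 at 119 ± 40.1 TPM. Trap1, the mitochondrial Hsp90, stood at 48.0 ± 1.39 TPM and Gak, the widely expressed relative of auxilin, at 103 ± 11.4 TPM, below Dnajc6.

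Markers of several cell types were detected. The summed level of 6 GABAergic markers was 5803, 5308 and 5210 TPM in replicates 1, 2 and 3, that of 5 excitatory markers 475, 483 and 595 TPM, of 5 astrocyte markers 35.1, 31.3 and 31.7 TPM and of 5 microglial markers 14.8, 9.56 and 11.6 TPM. None of these markers was at 0 in all libraries. Captured RNA of other cells and untagged RNA carried through the purification cannot be told apart here. Immediate early genes, which rise with activity or handling of tissue, summed to 767, 692 and 652 TPM, a sum carried by Egr1 at 553 ± 60.4 TPM. Egr1 and Fosb were highest in replicate 1 and Fos in replicate 2, while Arc, Npas4 and Junb were lowest in replicate 1, so the list had no common direction. Fewer cells of a type and less RNA per cell cannot be told apart in such samples, and gene counts per library were 14383545, 13951332 and 14461053.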

How the data were processed

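The authors deposited raw counts of reads per gene symbol, not normalized, 1 table per library. The submitters' processing notes list STAR 2.0.0e, HTSeq and mm10, with no role or order. Annotation, counting mode, strand setting and read length were not given in the sources used here. Records on no feature, ambiguous or without a unique alignment (11.8%, 2.49% and 11.2% in replicate 1, 11.0%, 2.83% and 11.3% in replicate 2, 13.1%, 2.68% and 13.1% in replicate 3), as shares of each table's total, stayed out of library sizes. Intervals and floors cover counting error only.

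The members and lists were chosen with earlier results of these data known. TPM was computed from the counts and merged exon lengths of GENCODE M21 (GRCm38), with 23155 symbols matched directly, 737 by a synonym and 8639 without a length. Levels of 2 genes were compared as the within-library difference of log2(TPM + 0.1), which understates differences of low genes. For each of 6 second genes limma 3.58.1 was fitted over 12455 genes averaging 1 CPM or more, two-sided, with Benjamini-Hochberg adjustment over all of them. Of 32 pairs, 30 could be tested and 26 passed the threshold of 0.05, 21 lower and 5 higher. Each gene's 3 counts were set against TMM-scaled library sizes (edgeR 4.0.16) in a chi-square test. DESeq2 1.42.0 gave other size factors and dispersions. On simulated data the chi-square test called 88% of 2-fold changes and 0.0627% of unchanged genes, without spread beyond counting. The pair test called 89.5% at a 2-fold difference and 7% at none. Its simulated second gene did not vary between libraries, as the real ones do, so these rates leave out that spread. Copied stretches are distinct 50-base words of a gene's GENCODE transcripts also present, on either strand, in those of genes that do not overlap it. Alternatives were other lengths, pseudocounts, filters and scalings, an unmoderated fit and leaving out each library. The use of lengths without copied stretches was chosen after seeing the data. Every member of the Hsp, Cct and Tcp1 names is given, of the Dnaj names the 20 highest, the 5 lowest with a count and those at 0, and over all members the 10 widest ranges, with an eleventh at 2-fold added after its value was seen. Software was matplotlib 3.10.9, SciPy 1.17.1, NumPy 2.4.6 and pandas 2.3.3 on Python 3.11.15, with R 4.3.3 for the fits.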

Additional observations from a re-analysis of the deposited data

How the results depend on the processing

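The number of heat shock and chaperonin genes that varied between libraries was 60 of 68, against 74.3% of all tested genes. Under other scalings and filters it lay between 55 and 64. The ends were 55 of 62 with a mean of at least 5 CPM (79.2% of all genes) and 64 of 76 unfiltered (59.3%). With replicates 1, 2 and 3 left out in turn it was 32, 54 and 48 of 68. The shares of all tested genes were then 42.7%, 62.4% and 54.9%. Dispersions give no call. The median biological coefficient of variation was 0.184 with edgeR and 0.185 with DESeq2, against 0.224 and 0.222 over all tested genes. The number of gene pairs past the threshold was 26, and 25 to 28 under the alternatives. Without a length correction 3 pairs turned: Cct7 minus Tcp1 to 0.18, Dnaja2 minus Dnaja1 to -0.43 and Dnajc6 minus Dnajc5 to -0.13. Hsp90aa1 minus Hsp90ab1 turned to 0.27 without copied stretches. Cct7 minus Tcp1 lay between -0.50 and 0.0070 when each library was left out in turn. Lengths decide these values by construction, and for the rest the cause was not tested. The number of genes at 1 TPM or more in every library was 69, and 68 to 70 under the alternatives. Of 204 single-gene results on library variation with 1 library left out, 46 calls were lost, and of 266 under other scalings and filters 3 were lost and 3 gained. The longest transcript as length moved 33 of 81 levels by more than 1 SD. No paired analysis was possible because the series has 1 group. Low counts limit the values of Hspb1, Hspb2, Hspb3, Hspb7, Hspb9, Cct6b and Dnajb13.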
